A study of Homo sapiens with 6 samples.

Results

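SEPTIN3, MAP6, NRN1 and CD24, which encode cytoskeletal and surface proteins known from neurons, were followed in a human embryonic kidney line that expresses TDNC1 or a random control RNA. They were found by their symbols in the platform annotation (SEPTIN3 also under its older name SEPT3), which pairs 16098 of the 53617 rows of the array table with 14884 symbols. Each of the 4 genes had exactly 1 row, so choosing the brightest row changed nothing. They were picked because earlier results of these same arrays showed higher values with TDNC1. The difference between the groups in these 4 rows is therefore a description of how they were chosen, and no test of it is given. The intervals printed below with these differences come from the same arrays that were used for the choice. Their stated coverage therefore does not hold for these 4 genes, and their limits are not read as a test.

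The cells were HEK293 of the Flp-In T-REx type, which take up a construct at a fixed genomic site, and every sample came from this 1 line. In the TDNC1 group (3 arrays) the cells stably overexpressed TDNC1. In the control group (3 arrays) they carried a random RNA in its place, so both groups went through the same integration and selection. All were grown in high glucose medium with 10% serum, with 15 µg/ml blasticidin, and with 100 µg/ml Zeocin that was exchanged for 50 µg/ml hygromycin after transfection. Stable clones were pooled before total RNA was prepared and hybridised to Affymetrix Human Gene 2.0 ST arrays. The sources used here give neither the meaning of TDNC1 nor whether, or for how long, its expression was induced. The replicates are labelled biological, with no statement that they are separate cultures or pools, so the spread between them may be partly technical. Each value is the log2 signal of 1 transcript cluster after RMA, a normalization that gives the arrays nearly the same distribution. Array medians ran from 5.16 to 5.22 and lower quartiles from 3.77 to 3.84, and all 4 genes lay above the lower quartile in every array. Both arrays numbered 3 stood apart from their groups. The median absolute difference of TDNC1 replicate 3 from TDNC1 replicates 1 and 2 was 0.188 and 0.177, against 0.136 from control replicate 3. Control replicate 3 differed by 0.162 and 0.160 from control replicates 1 and 2. The differences of the 4 genes and the counts in related lists are also given without TDNC1 replicate 3.

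Septins are GTP-binding proteins that assemble into filaments on membranes and along the cytoskeleton, and SEPTIN3 is a member known from nerve terminals. MAP6, also called STOP, binds microtubules and protects them from cold and drugs. NRN1 encodes neuritin, a small protein held on the outer membrane by a glycosylphosphatidylinositol (GPI) anchor, which neurons make in response to activity and which promotes the growth of their processes. CD24 is likewise a short, heavily glycosylated GPI-anchored protein. It is found on developing neurons, immature blood cells and many carcinomas, and on tumour cells it is a ligand of the inhibitory receptor Siglec-10. HEK293 was derived from embryonic kidney cultures but has long been known to express genes of the neuronal lineage.

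For NRN1 and CD24 the promoter table from RefSeq (GRCh38.p14) held entries, 2 of the 4 genes. Both genes lie on the minus strand of chromosome 6, and the 250 bases before the start site are shown for these 2 because only they had entries. The motifs searched on both strands were 6, and capitals mark the matches. They were the CGTCA core of the cAMP response element (also contained in the full element TGACGTCA), that full element, the GC box GGGCGG, the CCAAT box CCAAT, the TATA box TATAAA and the E-box CACGTG.
NRN1, chr6:6004026-6004275, minus strand: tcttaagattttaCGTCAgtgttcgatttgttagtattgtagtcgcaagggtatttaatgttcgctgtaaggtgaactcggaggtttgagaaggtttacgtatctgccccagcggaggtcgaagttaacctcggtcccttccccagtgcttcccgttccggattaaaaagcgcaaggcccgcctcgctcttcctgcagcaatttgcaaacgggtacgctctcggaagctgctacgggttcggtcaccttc
CD24, chr6:106975628-106975877, minus strand: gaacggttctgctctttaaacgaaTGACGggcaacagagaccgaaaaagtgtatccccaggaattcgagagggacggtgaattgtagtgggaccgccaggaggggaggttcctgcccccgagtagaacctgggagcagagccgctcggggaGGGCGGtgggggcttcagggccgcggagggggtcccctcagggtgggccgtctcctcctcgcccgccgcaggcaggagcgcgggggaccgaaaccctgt
The NRN1 window has 1 match, the CGTCA core that starts at base 14, or 237 bases before the start. The CD24 window has the CGTCA core at base 25 on the opposite strand and a GC box at base 152. Among 35116 promoter windows of this length in the table, 21.2% hold the CGTCA core and 42.6% a GC box, so neither is rare. The CCAAT box is in 32.0%, the TATA box in 10.7%, the E-box in 6.34% and the full element in 1.65% of the windows, and these 4 have no match in the 2 windows shown. Guanine and cytosine make up 50.8% of the NRN1 window and 65.6% of the CD24 window (median over all windows 58.0%). The windows hold 19 and 20 CpG pairs, where the median over all windows is 11. The table lists 3 start sites for CD24, and the window of the outermost is shown. Of the windows not shown, that of entry 2 has the CGTCA core. That of entry 3 has a GC box 71 bases and a CCAAT box 35 bases before its start. These matches describe the letters only, since no binding was measured.

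The septin gene SEPTIN3 (Entrez gene 55964, row 16930811, chromosome 22) stood at 9.46, 9.40 and 9.06 in TDNC1 replicates 1, 2 and 3 and at 8.46, 8.45 and 8.78 in the control replicates. All 3 TDNC1 arrays lay above all 3 control arrays, with a gap of 0.28 between the nearest arrays. The TDNC1 replicate numbered 3 was the lowest of its group and the control replicate numbered 3 the highest of its own. The group means were 9.31 ± 0.22 (SD, n = 3) and 8.56 ± 0.19 (SD, n = 3), a log2 difference of 0.74 (SE 0.15, 95% interval 0.39 to 1.09), or 1.67-fold. Without TDNC1 replicate 3 it was 0.87 (SE 0.13). In such pooled cells, more cells that express a gene and more RNA per cell cannot be told apart.

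The microtubule stabiliser gene MAP6 (Entrez gene 4135, row 16742294, chromosome 11) was the tightest of the 4. Its values were 5.79, 5.93 and 5.78 with TDNC1, against 5.23, 5.28 and 5.41 in control cells. The groups did not overlap, the nearest arrays were 0.37 apart, and TDNC1 replicate 3 lay beside TDNC1 replicate 1. The means were 5.83 ± 0.08 (SD, n = 3) and 5.31 ± 0.09 (SD, n = 3), a log2 difference of 0.53 (SE 0.10, 95% interval 0.30 to 0.75), or 1.44-fold. It was 0.55 (SE 0.11) without TDNC1 replicate 3.

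CD24 (Entrez gene 100133941, row 17117110, chromosome 6) had values of 6.96, 6.93 and 6.67 with TDNC1, against 6.06, 6.18 and 6.38 in control cells. The groups were 0.29 apart at their nearest arrays, which again were the replicates numbered 3. The means were 6.86 ± 0.16 (SD, n = 3) and 6.21 ± 0.16 (SD, n = 3), a log2 difference of 0.65 (SE 0.13, 95% interval 0.35 to 0.95), or 1.57-fold. It was 0.74 (SE 0.12) without TDNC1 replicate 3. The gene table lists 5 CD24 pseudogenes, 0 of them with a named row, and the sources used here do not say whether the probes of the CD24 row tell these copies apart. Chromosome 6 was read from the gene table and not from the array row. The row number lies far from those of the neighbours of CD24 in gene order, MIR587 (17011365) and MTRES1 (17011367). Which copy the probes were designed on was not tested.

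NRN1 (Entrez gene 51299, row 17015324, chromosome 6) was placed differently from the other 3 genes. TDNC1 replicates 1 and 2 had 10.23 and 10.29, TDNC1 replicate 3 only 9.27, and the control arrays 9.38, 9.33 and 9.28. TDNC1 replicate 3 was thus below all 3 control arrays, and the groups overlapped. The range within TDNC1 was 1.02, against 0.10 within the control. The means were 9.93 ± 0.57 (SD, n = 3) and 9.33 ± 0.05 (SD, n = 3), a log2 difference of 0.60 (SE 0.26) with a 95% interval from -0.02 to 1.21. Without TDNC1 replicate 3 the log2 difference was 0.93 (SE 0.09), or 1.90-fold, and without TDNC1 replicate 2 it was 0.41 (SE 0.27). The size given for NRN1 therefore rests on whether TDNC1 replicate 3 is counted.

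**Figure D1:**
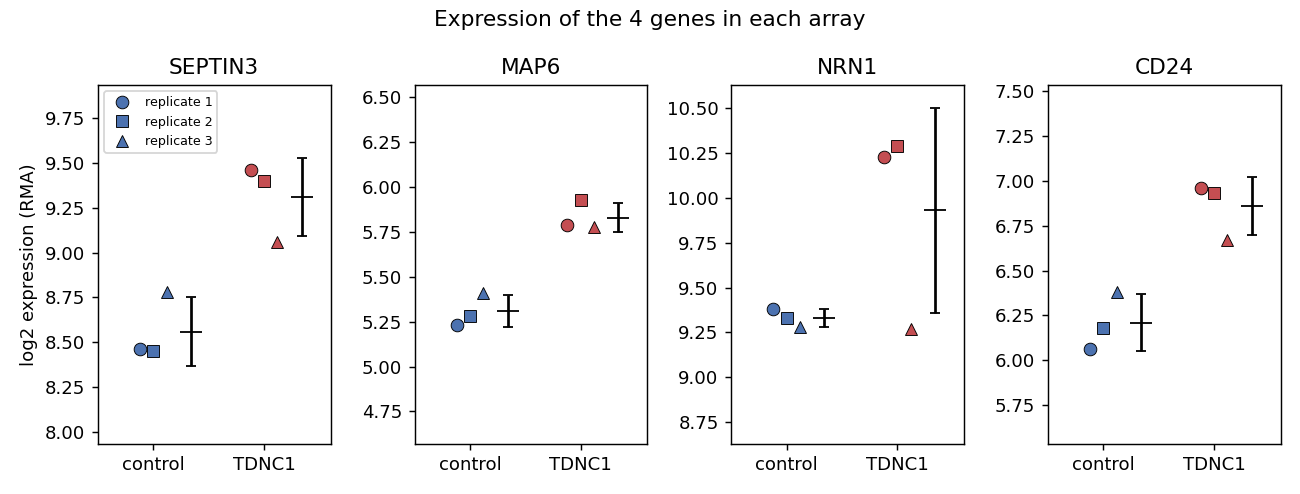
Log2 expression of SEPTIN3, MAP6, NRN1 and CD24 in each array, with 3 control arrays (blue) and 3 TDNC1 arrays (red) per gene, replicate number by symbol, and the group mean with its SD as a black bar; each panel spans the same height. TDNC1 lies above control in all arrays for SEPTIN3, MAP6 and CD24, and for NRN1 in replicates 1 and 2 alone, with TDNC1 replicate 3 at 9.27, just below the controls.

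The replicates numbered 3 were the closest pair of arrays across the groups for these genes. Their log2 difference was 0.28 for SEPTIN3, 0.29 for CD24, 0.37 for MAP6 and -0.02 for NRN1. In the replicates numbered 1 it was 1.00, 0.90, 0.56 and 0.84 in the same order. In the replicates numbered 2 it was 0.95, 0.75, 0.65 and 0.96. The numbers are not known to pair samples, so these differences only show where the arrays lay. With both arrays numbered 3 left out, 2 against 2 arrays, the log2 difference was 0.98 (SE 0.09) for SEPTIN3, 0.60 (SE 0.10) for MAP6, 0.90 (SE 0.09) for NRN1 and 0.83 (SE 0.10) for CD24.

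**Figure D2:**
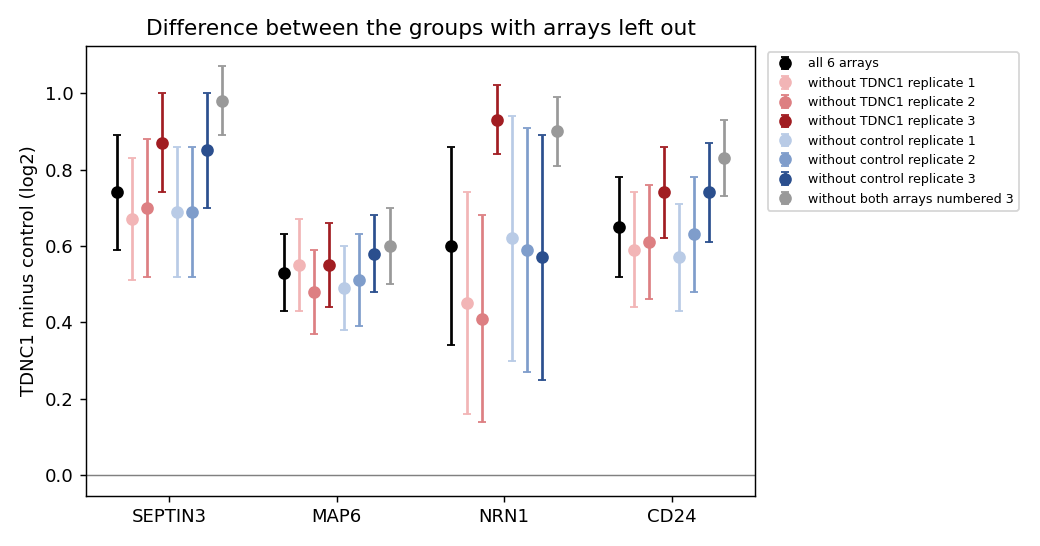
Log2 difference, TDNC1 minus control, for each of the 4 genes with all 6 arrays (black) and with arrays left out as the colours state; bars are the SE of the limma fit. All values are above 0, from 0.41 (NRN1 without TDNC1 replicate 2) to 0.98 (SEPTIN3 without both arrays numbered 3). For SEPTIN3, MAP6 and CD24 that direction was fixed, because their groups do not overlap. NRN1 has the widest bars unless TDNC1 replicate 3 is left out.

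Over all 53617 rows, 1 passed limma's test at a Benjamini-Hochberg adjusted p under 0.05, or 0.00187%. That row is the long noncoding RNA LOC646736, with a log2 difference of 6.06 (SE 0.13), and 0 of the 4 genes were called. With 1 row per symbol, the groups did not overlap in 8.95% of symbols with TDNC1 higher and in 6.36% with TDNC1 lower. Of the 4 genes, 3 were in the first class, a count that their choice fixed. The median log2 difference over all symbols was 0.0034. The control genes GAPDH and TBP had log2 differences of 0.01 (SE 0.09) and -0.28 (SE 0.11).

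The array profiles of SEPTIN3, MAP6 and CD24 followed each other closely. Pearson's r over the 6 arrays was 0.99 for SEPTIN3 and CD24, 0.97 for MAP6 and CD24 and 0.96 for SEPTIN3 and MAP6. NRN1 had an r of 0.82 with SEPTIN3, 0.79 with CD24 and 0.71 with MAP6. All 4 were chosen for the same group difference, which these 6 points share, so the values are descriptive, and they were not computed with arrays left out. Among 10662 other symbols in the upper part of the signal range (row mean at or above the median row), the most similar profiles were also ranked. CD24 was most like DCLK1, a microtubule-binding kinase of the doublecortin family (r = 0.9975), PDGFA, a growth factor chain (0.9968), and PODXL2, a mucin-like surface protein related to podocalyxin (0.9960). SEPTIN3 was most like HIP1, an endocytic adaptor that binds huntingtin (0.9974), PODXL2 again (0.9968) and PSPH, the last enzyme of serine synthesis (0.9955).

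MAP6 was most like PUDP, a phosphatase of pseudouridine monophosphate (0.9853), HCN2, a pacemaker channel (0.9819), and the zinc finger gene ZNF250 (0.9814). For NRN1 they were TMEM69 (0.9992), QNG1 (0.9977) and the chromatin protein gene DEK (0.9976). The 3 genes nearest to NRN1 share its split of the arrays, high in TDNC1 replicates 1 and 2 alone, at much smaller sizes. TMEM69, for example, had 10.35, 10.36 and 10.21 with TDNC1, against 10.22, 10.22 and 10.21 in control cells. Very high r is common with 6 arrays, since 217, 71, 368 and 186 symbols exceeded 0.95 for SEPTIN3, MAP6, NRN1 and CD24.

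**Figure D3:**
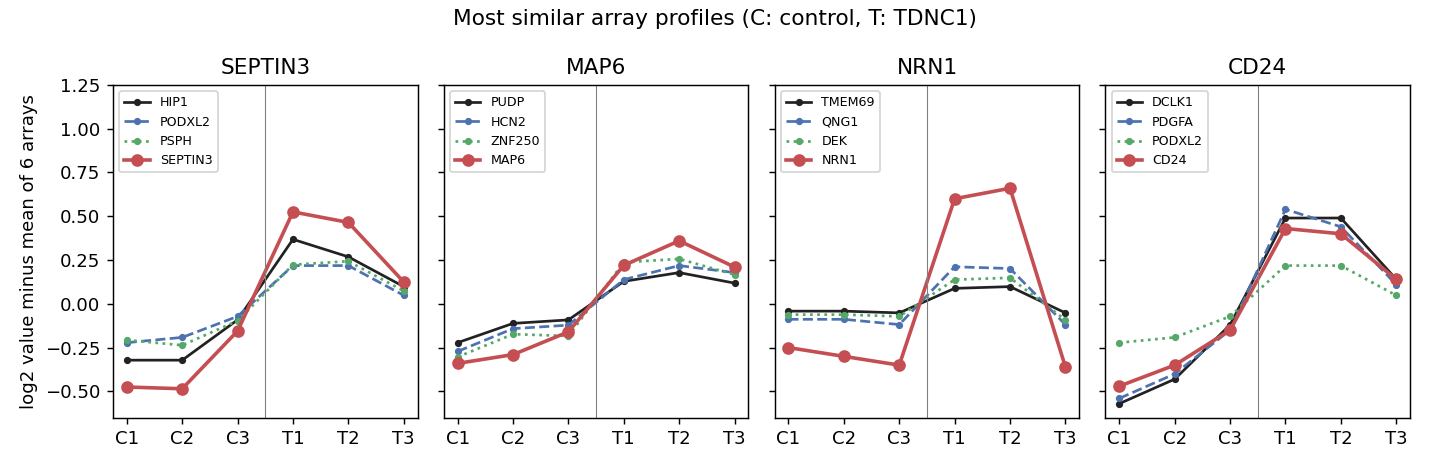
Log2 value minus the mean of the 6 arrays for each of the 4 genes (red) and the 3 symbols with the highest Pearson's r to it, over control (C) and TDNC1 (T) replicates; lines only join the points of a gene. SEPTIN3, MAP6 and CD24 and their nearest genes are higher in T1, T2 and T3 than in the controls, while NRN1 and its nearest genes are high in T1 and T2 and at the control level or below it in T3.

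Of the other septins, 11 of 12 listed relatives were measured, and 0 passed the test over all rows. SEPTIN3 had the largest log2 difference of the 12 measured septins, a rank favoured by its choice for higher values. The others ran from -0.36 to 0.26 with a median of 0.09, and 8 were above 0. SEPTIN7, the septin that builds the core of most filaments, had 0.26 (SE 0.12), SEPTIN6 0.22 (SE 0.10) and the widely expressed SEPTIN9 0.19 (SE 0.10). SEPTIN12, which belongs to the same subgroup as SEPTIN3 and SEPTIN9, had 0.05 (SE 0.09). SEPTIN2 had -0.0011 (SE 0.08). SEPTIN14 had the lowest log2 difference, -0.36 (SE 0.13), with means of 3.79 and 4.15 that lie close to the lower quartiles of the arrays. By an unadjusted p under 0.05, 0 of the 11 were higher and 1 was lower, where 4.59% and 2.56% of all symbols were. The groups did not overlap for SEPTIN6, SEPTIN7, SEPTIN9 and SEPTIN11 in the higher direction, 4 of 11, and for SEPTIN14 in the lower, where 8.95% and 6.36% of all symbols did not. Without TDNC1 replicate 3 the first count was 2 higher (SEPTIN4 and SEPTIN6) and 1 lower, against a background of 10.1% and 7.46%. The 7 measured septin regulators and partners had a median log2 difference of -0.14. RHOA, the GTPase that controls actin and septin assembly at the cleavage furrow, had -0.22 (SE 0.11), and 5 of the 7 were below 0. With all arrays 0 of the 7 had an unadjusted p under 0.05, and 0 were higher and 1 lower without TDNC1 replicate 3.

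Among the relatives of MAP6, 25 other microtubule-associated proteins were measured. None passed the test over all rows (limma, adjusted p of 0.631 or higher). By an unadjusted p under 0.05, 4 of 25 were higher and 0 lower, where 4.59% and 2.56% of all symbols were. The groups did not overlap in 8 of 25 with TDNC1 higher and in 0 with TDNC1 lower, where 8.95% and 6.36% of all symbols were in these classes. The median log2 difference of the 25 was 0.10, with 18 above 0. DCLK1 stood at 7.01, 7.01 and 6.66 with TDNC1, against 5.95, 6.09 and 6.40 in control cells, a log2 difference of 0.75 (SE 0.15). Its groups did not overlap and were nearest in the replicates numbered 3, as for SEPTIN3 and CD24. MAP7D2, which recruits kinesin to microtubules, stood at 8.80, 8.75 and 8.24 against 8.14, 8.15 and 8.17, a log2 difference of 0.44 (SE 0.16). It came close to the control in TDNC1 replicate 3, as NRN1 did. MAP2, a marker of dendrites, had 6.05, 6.34 and 6.22 against 5.53, 5.89 and 6.04, a log2 difference of 0.39 (SE 0.15).

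The remaining gene of the 4, CRMP1, named because the count is small, encodes a collapsin response mediator and had 0.26 (SE 0.11). The closest paralog of MAP6, MAP6D1, had -0.09 (SE 0.11), with overlapping groups, and the tau gene MAPT 0.02 (SE 0.15). MAP1S had the lowest value, -0.57 (SE 0.26). TDNC1 replicates 1 and 2 had 8.08 and 7.94, and TDNC1 replicate 3, at 8.90, lay within the control range. MAP6D1, MAPT and MAP1S were named after their values were seen. Without TDNC1 replicate 3, 3 of 25 were higher and 1, MAP1S, was lower, where the background was 10.1% and 7.46%. The count of 4 fell to 1 without TDNC1 replicate 2, without control replicate 1 or without control replicate 2, and to 2 without TDNC1 replicate 1, and it was 9 with both arrays numbered 3 left out. Of 8 measured tubulin-modifying genes (the tubulins themselves are not named in the table used here), the median was 0.08. The tubulin acetyltransferase gene ATAT1 had -0.32 (SE 0.13) and the deglutamylase gene AGTPBP1 0.32 (SE 0.13). These were the 1 lower and 1 higher by an unadjusted p under 0.05, where 2.56% and 4.59% of all symbols were. Without TDNC1 replicate 3 the counts were 1 lower and 2 higher, where the background was 7.46% and 10.1%.

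**Figure D4:**
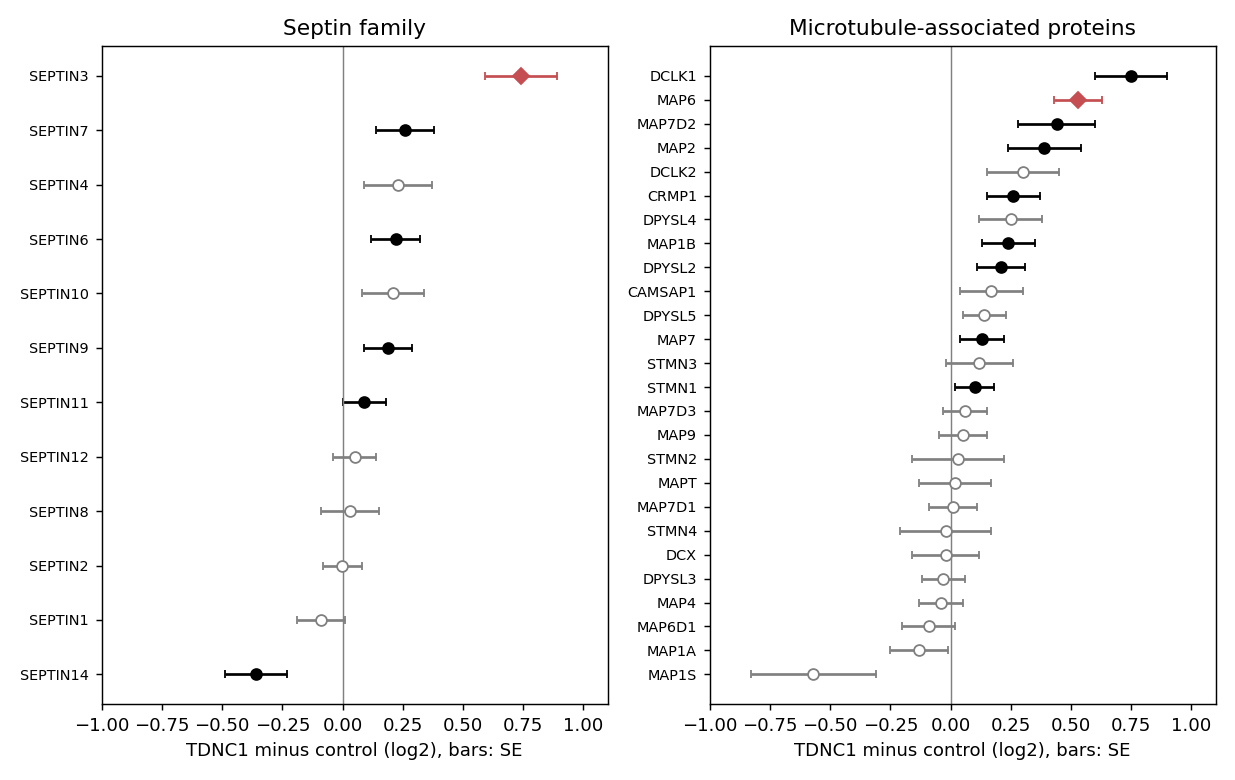
Log2 difference, TDNC1 minus control, with its SE for 12 septins (left) and 26 microtubule-associated proteins (right); red diamonds are SEPTIN3 and MAP6, filled points have groups that do not overlap and open points groups that overlap. SEPTIN3 lies apart from the other septins, which end at 0.26, while MAP6 at 0.53 lies between DCLK1 at 0.75 and MAP7D2 at 0.44. SEPTIN3 and MAP6 were chosen for their higher values.

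NRN1 was set beside 31 other GPI-anchored neural surface proteins and 13 other activity-regulated genes. The GPI-anchored genes had a median log2 difference of 0.0044, from -0.29 to 0.78. By an unadjusted p under 0.05, 3 of 31 were higher and 1 lower, where 4.59% and 2.56% of all symbols were, and 0 passed over all rows. CNTN1, a contactin of axons, stood at 7.34, 7.22 and 7.06 with TDNC1, against 6.59, 6.49 and 6.78 in control cells, a log2 difference of 0.59 (SE 0.12). GPC3, a glypican of embryonic tissue, stood at 8.92, 8.84 and 8.26 against 7.76, 7.78 and 8.12, a log2 difference of 0.78 (SE 0.20). Both had groups that did not overlap, with the replicates numbered 3 nearest. The cell adhesion gene OPCML had -0.26 (SE 0.10). The third higher gene, the ephrin gene EFNA3, had 0.25 (SE 0.11), and the only other neuritin, NRN1L, had -0.21 (SE 0.12), both named after their values were seen. The counts were 3 higher and 2 lower of 31 without TDNC1 replicate 3, where the background is 10.1% and 7.46%.

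The 13 activity-regulated genes other than NRN1 had a median of -0.04, from -0.31 to 0.44. Of the 13, 1 was higher and 2 were lower by an unadjusted p under 0.05, where 4.59% and 2.56% of all symbols were. INSR, the insulin receptor, which has been tied to the action of neuritin, had 7.89, 7.90 and 7.44 with TDNC1, against 7.21, 7.39 and 7.31 in control cells, a log2 difference of 0.44 (SE 0.14). The activity-dependent factor NPAS4 had -0.27 (SE 0.11) and CREB1, which drives transcription through the cAMP response element, -0.26 (SE 0.10). The neurotrophin gene BDNF had 0.04 (SE 0.10), ARC -0.23 (SE 0.18), and the pentraxins NPTX1 and NPTX2 0.02 (SE 0.10) and 0.05 (SE 0.11). Of 28 listed genes of GPI anchor synthesis and remodelling, on which NRN1 and CD24 both depend, only 5 had a named row. They were DPM3, GPAA1, PGAP1, PGAP2 and PGAP3, so the pathway as a whole was not read. Of the 5, 4 were below 0 with a median of -0.20, and 0 had an unadjusted p under 0.05. With TDNC1 replicate 3 left out, the activity-regulated genes had 1 higher and 3 lower, and GPI anchor synthesis 0 and 1, where the background is 10.1% and 7.46%.

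The partners of CD24 lay on both sides of 0. Of 9 measured, 5 were above 0 and the median was 0.02. The receptor gene SIGLEC10 had 0.12 (SE 0.09), the Src-family kinase gene LYN, through which CD24 signals, 0.04 (SE 0.13), the adhesion gene L1CAM -0.08 (SE 0.10) and HMGB1 0.07 (SE 0.08). By an unadjusted p under 0.05, 0 were higher and 1 was lower, where 4.59% and 2.56% of all symbols were. That gene, ANXA2, an annexin that binds membranes and actin, stood at 6.18, 5.97 and 6.09 with TDNC1, against 6.44, 6.46 and 6.38 in control cells, a log2 difference of -0.34 (SE 0.09). The groups of ANXA2 did not overlap, but it did not pass over all rows (limma, adjusted p = 0.631). The tetraspanin gene CD9 was high in TDNC1 replicates 1 and 2 alone (6.31 and 6.28), as NRN1 was. TDNC1 replicate 3 had 5.74, and the control arrays 5.76, 5.72 and 5.85. Among 7 other surface markers of stem and carcinoma cells, 6 were above 0 with a median of 0.10. PROM1 (CD133) had 0.39 (SE 0.15), CD44, often read together with CD24, 0.10 (SE 0.11), and EPCAM 0.03 (SE 0.13). When TDNC1 replicate 3 was left out, 1 of the 9 CD24 partners was higher and 1 lower, and 2 of the 7 surface markers were higher and 0 lower. Of all symbols, 10.1% were higher and 7.46% lower in that setting.

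Markers common to most neurons lay on both sides of 0. Of 24 listed pan-neuronal markers only 12 had a named row. Those without a named row include RBFOX3, TUBB3, SNAP25 and the neurofilament genes NEFL, NEFM and NEFH. Over the 12 measured markers the median log2 difference was -0.01, with 5 above 0 and 7 below. By an unadjusted p under 0.05, 1 was higher, MAP2 (given above), and 0 were lower, where 4.59% and 2.56% of all symbols were. The synaptic genes SYP and SYN1 had 0.01 (SE 0.11) and -0.01 (SE 0.15), the growth cone gene GAP43 0.10 (SE 0.09), the migrating neuron marker DCX -0.02 (SE 0.14) and the ubiquitin hydrolase gene UCHL1 -0.07 (SE 0.08). The log2 of the summed linear signal of the 12 markers ran from 10.63 to 10.69 in TDNC1 and from 10.69 to 10.72 in the control. This sum is weighted toward the brightest marker, UCHL1, which averaged 9.69 with TDNC1, against 9.76 in control cells. The next brightest, NCAM1, averaged 7.34 against 7.49. The sum is therefore not a level shared by the 12 markers. REST, the factor that silences neuronal genes outside neurons, stood at 7.82, 7.83 and 7.68 with TDNC1, against 7.71, 7.83 and 7.82 in control cells, a log2 difference of -0.01 (SE 0.09). Over the 12 genes of its complex the median was 0.05, and over 15 measured REST target genes -0.01, with 0 of either list past an unadjusted p under 0.05. Of 18 neural transcription factors, 1 was higher and 0 lower. It was NEUROG2, a proneural factor, with 0.31 (SE 0.10). SOX11 had 0.19 (SE 0.09), and ZIC2 had -0.39 (SE 0.19), which was -0.60 without TDNC1 replicate 3. Without TDNC1 replicate 3, where the background is 10.1% higher and 7.46% lower, the pan-neuronal markers had 0 higher and 1 lower. The REST complex had 0 and 1, the REST targets 0 and 0 and the neural transcription factors 2 and 1 in that setting.

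The labelled cell type was read from marker lists. Of 10 measured kidney markers, the early nephric genes EYA1 and SALL1 were bright, with control means of 8.03 and 8.29, and PAX8 stood at 5.08, near the array medians. PAX2 had a log2 difference of 0.41 (SE 0.12). Epithelial markers had a median of -0.03 over 12 genes. The brightest of them, EPCAM, had a control mean of 9.91 and a TDNC1 mean of 9.94. OCLN, KRT18, ESRP2 and KRT19 were also bright, with control means of 9.49, 9.30, 8.75 and 8.10. Those of CLDN3, KRT8 and CLDN7 were 7.25, 6.63 and 5.85. CLDN4, KRT7, ESRP1 and GRHL2 lay near or below the array medians, with control means of 5.16, 4.99, 4.90 and 4.42. Glial markers had a median of 0.0041 over 7 genes (0.17 without TDNC1 replicate 3), adrenal and sympathetic markers -0.08 over 9, fibroblast markers -0.04 over 5 and blood cell markers 0.13 over 3. Of the 5 fibroblast and mesenchymal genes, DCN and LUM were dim, at 2.29 and 3.58 in the control, while VIM stood at 8.71, FN1 at 7.86 and THY1 at 5.83. At an unadjusted p under 0.05, PAX2 and the claudin gene CLDN4 (0.26, SE 0.11) were the only members of these 6 lists past that limit, both higher. Of all symbols, 4.59% were higher and 2.56% lower. In the fit without TDNC1 replicate 3, 3 kidney, 1 epithelial, 1 glial and 1 fibroblast marker were higher by that limit and 1 adrenal marker was lower. In that fit 10.1% of all symbols were higher and 7.46% lower.

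**Figure D5:**
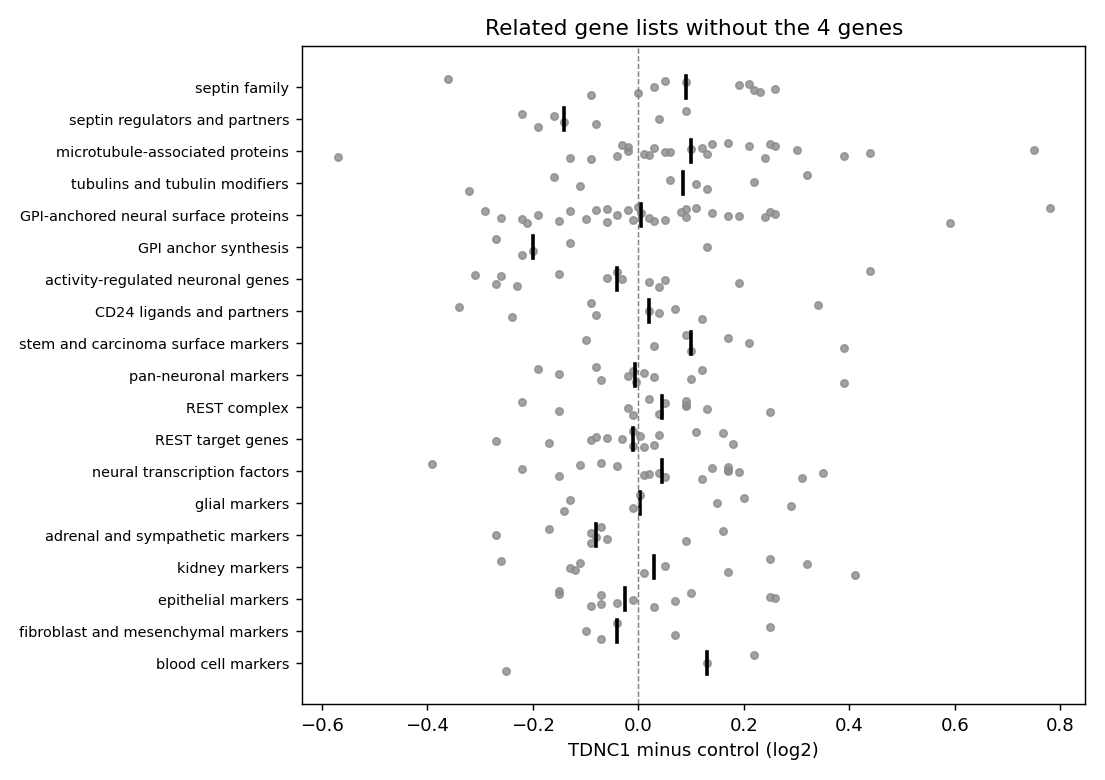
Log2 difference, TDNC1 minus control, of each measured gene (grey points) in 19 lists related to the 4 genes, which are left out; black bars are list medians and the dashed line is 0. With all arrays, medians lie between -0.20 (GPI anchor synthesis, 5 of 28 listed genes) and 0.13 (blood cell markers, 3 of 12). The medians without TDNC1 replicate 3 are not plotted. They lie between -0.30 (GPI anchor synthesis) and 0.19 (stem and carcinoma surface markers).

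The nearest measured genes on either side of each of the 4, in the gene order of the GRCh38.p14 table, were also read, chosen by position alone. Beside SEPTIN3, CENPM had a log2 difference of -0.03 (SE 0.10) and WBP2NL 0.21 (SE 0.11), the latter in a dim row. Beside MAP6, GDPD5 had -0.08 (SE 0.09) and MOGAT2 -0.12 (SE 0.16). Beside NRN1, MIR3691 had 0.18 (SE 0.15) and LY86-AS1 0.09 (SE 0.09). Beside CD24, MIR587 had 0.01 (SE 0.17) and MTRES1, a mitochondrial transcription rescue factor, -0.30 (SE 0.11), with all 3 TDNC1 arrays below the control arrays. None of these 8 neighbours was as far above 0 as the gene it adjoins, and 0 passed over all rows. The 4 genes were chosen for higher values and the neighbours by position, so that ranking follows from the choice.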

How the data were processed

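Total RNA of 6 samples was measured on arrays, 3 of TDNC1 cells and 3 of control cells, grouped by their titles. The authors used Affymetrix Power Tools and its RMA method, per the submitters' processing notes; the sources used here give no version, annotation or build. The deposited values run from 0.79 to 13.85, which is the range of a log2 scale. RMA would remove a shift shared by most transcripts, and it compresses fold changes of dim rows. Arrays have no sequencing depth, and their number limits the precision.

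Differences, SEs and intervals come from limma (version 3.58.1, R 4.3.3; two-sided, lmFit then eBayes, no covariate) over all rows, with Benjamini-Hochberg adjustment. The code was tested on simulated data. For the lists, 1 row per symbol was used, the brightest. Listed genes without a named row were left out, and the others are called measured. The 4 genes, the 19 lists and the alternatives were chosen with earlier results of these data known. From each list, all members could be named where at most 15 were measured, otherwise the 3 with the smallest p, and for each gene the 3 most similar profiles. Genes outside this rule are marked in the text. Alternatives left out each array or both arrays numbered 3, or added a replicate block, array weights, median centring, an intensity trend or a filter on dim rows, or averaged the rows of a symbol.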

Additional observations from a re-analysis of the deposited data

How the results depend on the processing

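All 4 genes kept a higher value in TDNC1 in every alternative run. For SEPTIN3, MAP6 and CD24, whose groups did not overlap, leaving out or weighting arrays could not reverse that direction. Their direction in those runs is therefore no further evidence. With single arrays left out, the log2 difference ran from 0.67 to 0.87 for SEPTIN3, from 0.48 to 0.58 for MAP6, from 0.41 to 0.93 for NRN1 and from 0.57 to 0.74 for CD24. Without both arrays numbered 3 it was 0.98 for SEPTIN3 and 0.83 for CD24, and of 52 values of the 4 genes these 2 moved by more than the spread between replicates. For NRN1 that spread is itself widened by TDNC1 replicate 3 (SD 0.57 in TDNC1). Its change from 0.60 to 0.93 without that array therefore stayed within it, which does not show that NRN1 was stable. The number of rows called (1 with all arrays) ran from 1 to 23 with single arrays left out, with 23 without TDNC1 replicate 3 and 2 without control replicate 3, and it was 1 in the other settings run. Rows with an unadjusted p under 0.05, 4129 with all arrays, were 2692 without TDNC1 replicate 2, 7770 without TDNC1 replicate 3, 8035 without both arrays numbered 3 and 7165 with array weights, so counts of list members at that limit depend on which arrays are used. With the replicate block 1 row was called. The log2 differences were 0.74, 0.53, 0.60 and 0.65 for SEPTIN3, MAP6, NRN1 and CD24. In this balanced design the block can change only their SEs. The deviations of same-numbered arrays correlated by 0.04, 0.00 and 0.05, so the numbers are not shown to pair samples. Of 247 list medians, 26 moved by more than the spread between replicates. The averaging of rows could not change the 4 genes, which have 1 row each. The intensity trend and the filter on dim rows also leave a row's difference unchanged. Values from these settings and from the replicate block, among the 52, were therefore fixed in advance.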
